A study of Mus musculus with 9 samples.

Results

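AP-1 is a dimeric transcription factor built from Fos and Jun proteins, and the 7 genes that encode its classical subunits in the mouse are described here: Fos, Fosb, Fosl1 (Fra-1), Fosl2 (Fra-2), Jun, Junb and Jund. They are 7 of 21900 protein-coding genes of the RefSeq annotation of GRCm38 (49997 genes of all kinds), were chosen by name, and all 7 were matched by symbol. For each gene, every m6A peak within 500 bp of the gene body was taken. The peaks came from 2 m6A RNA immunoprecipitations of wild-type mouse embryonic stem cells (mESCs; genotype label WT, a cross of mouse strains by the methods, background label "Rosa26:CRE, Bir ligase", cultured on gelatin with serum and LIF-conditioned medium), here called replicate 1 and replicate 2. They are 2 of 9 samples, the other 7 being immunoprecipitations of Mettl3KO and Zc3h13KO cells and the inputs of all 3 genotypes, which were not analysed here. N6-methyladenosine (m6A) is a mark on adenosines of mRNA. In m6A-RIP-seq an antibody pulls down marked RNA. By the methods, the mRNA bound to the antibody was then cut on the beads with an RNase. The authors called a peak where the immunoprecipitated reads exceeded input on mm10, which is GRCm38.

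The list of replicate 1 held 22531 peaks (median width 445 bp, median fold enrichment over input 5.39) and that of replicate 2 held 5040 (446 bp, 6.35). The lists carry no read counts, so depth is unknown, and fold enrichment and the −log10 of the q-value are printed as deposited. A −log10 q is compared only within its own list, as a rank. The peak names of replicate 1 carry "H4" where those of replicate 2 carry "WT_exp2", so each value below is given by replicate. Apart from that "exp2", nothing in the labels, the methods or the lists says whether the replicates were separate cultures. Of 8 markers of embryonic stem cells, 6 had a peak in replicate 1 (against 41.3% of protein-coding genes) and 1, Tbx3, had one in replicate 2 (12.5%, against 16.9%), while Pou5f1 and Tfcp2l1 had none in either list. A peak does not measure expression, so these markers do not test the cell type. Of 5 fibroblast markers, 3 had a peak in replicate 1 (60.0%), and Pdgfra and Pdgfrb had one in both lists (40.0%, against 16.1% of protein-coding genes), while Col1a1 and Col1a2 had none. Expression was not analysed here, so absence of a peak cannot be told apart from absence of the transcript.

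Fos proteins cannot pair with each other and bind DNA as heterodimers with Jun proteins, whereas Jun proteins can also pair among themselves. Fos, Fosb, Jun and Junb are immediate early genes, induced within minutes by growth factors and serum, and their mRNAs decay quickly. m6A is written by the Mettl3 and Mettl14 methyltransferase with a set of regulatory proteins that includes Zc3h13. In mammalian mRNA it is most frequent near stop codons and in long exons, and it is known to speed the decay of many mRNAs.

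All 7 AP-1 genes had a peak in replicate 1, against 41.3% of all protein-coding genes, and 4 of 7 had one in replicate 2, against 16.9%. The genes with a peak in both replicates were Fos, Fosl2, Jun and Junb, which is 4 of 7 (57.1%), against 16.1% of all protein-coding genes. Since all 7 had a peak in replicate 1, a closer background is the 9038 protein-coding genes that also had one there. Of these, 39.1% had a peak in replicate 2 too. In each of these 4 the peaks of the replicates overlapped by at least 1 bp, which 15.6% of protein-coding genes showed. Such overlap was the rule among protein-coding genes with a peak in both replicates, at 3414 of 3531. Fos alone had a pair in which at least 50% of both peaks was shared. The share of all genes under that stricter rule was not computed. Fosb, Fosl1 and Jund had peaks in replicate 1 only. There were 14 peaks at the 7 genes in replicate 1 and 5 in replicate 2, and all 5 of replicate 2 overlapped one of replicate 1, as did 92.1% of that whole list. All 19 peaks touched a gene body, so the 500 bp allowance added none. The nearest peak left out lay 719 bp beyond the higher coordinate of Fosl1 (fold enrichment 2.46, replicate 1), at Ccdc85b.

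**Figure D1:**
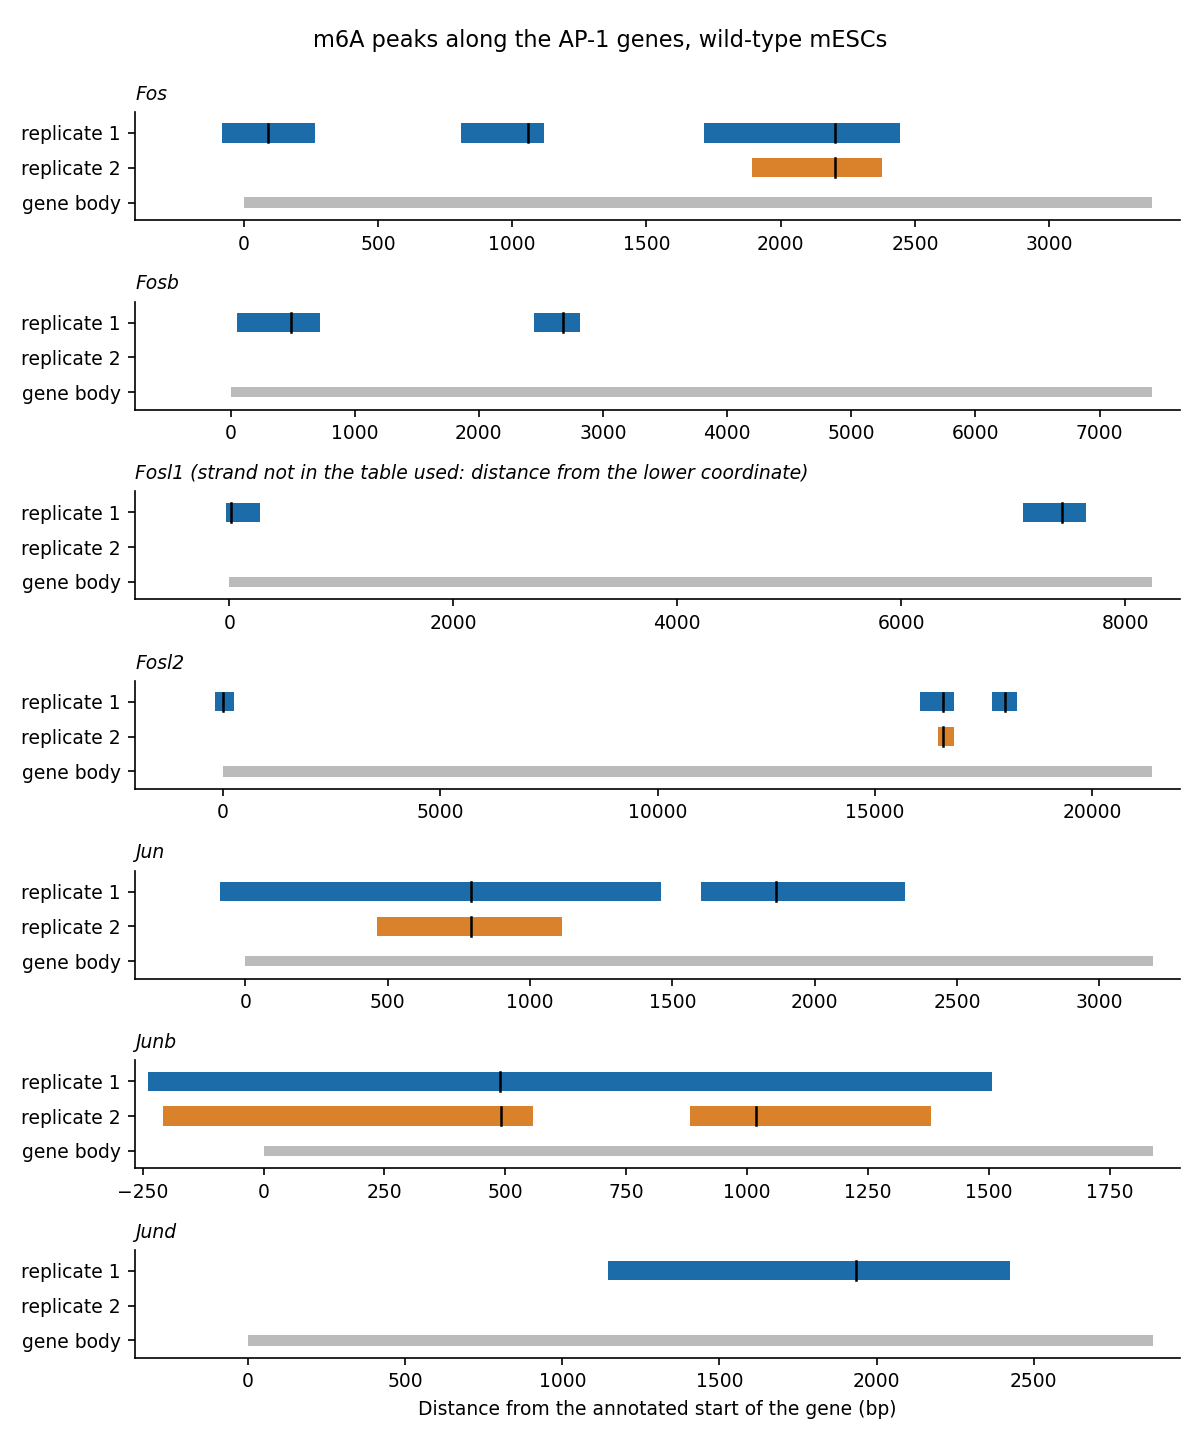
Peaks of replicate 1 (blue) and replicate 2 (orange) along each AP-1 gene (grey), by distance in bp from the annotated start (for Fosl1, whose strand was not in the table used, from its lower coordinate), with black ticks at the summits and a separate scale for each gene. Each peak of replicate 2 lies under a peak of replicate 1; at Fos, Fosl2, Jun and Junb a pair of summits lies 1 to 4 bp apart.

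Where both replicates had a peak, their summits fell at nearly the same base. The distance between the paired summits was 1 bp at Fos, 4 bp at Fosl2, 2 bp at Jun and 1 bp at Junb. Junb had a second pair, because its single wide peak of replicate 1 spanned both peaks of replicate 2, and there the summits were 528 bp apart. Thus 4 of 5 pairs were within 5 bp, against 41.5% of the 4684 overlapping pairs of the whole lists, whose median distance was 10 bp. The 5 bp limit was chosen after the distances were seen.

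Peaks that ran across the annotated start of the gene were found at 4 of the 6 members whose strand was known, namely Fos, Fosl2, Jun and Junb in replicate 1. A start was covered in replicate 1 at 5.37% of the 17492 protein-coding genes of known strand, and at 13.1% of the 7163 of these that had any peak in that list. Neither share was matched for gene length, and the bodies of Fos, Jun and Junb were 3385, 3187 and 1840 bp long. In replicate 2 the start of 1 member of 6 was covered, that of Junb, against 0.532% of the genes of known strand. The closer share, among genes that had any peak in the list, was not computed for replicate 2. When replicate 1 was cut to as many peaks as replicate 2, the starts of 2 members were covered. The share of all genes was not computed for the cut list. Strand came from the RefSeq promoter windows, which matched 6 of the 7 members, all but Fosl1. The stretches below are shown because the replicate 1 peaks lie over them. Each runs 5′ to 3′ on the strand of the gene from the upstream edge of the peak to the 30th base from the annotated start (RefSeq, GRCm38.p6). Capitals mark those 30 bases, and lower case the bases before the start.
Fos, chr12:85473808-85473919, plus strand: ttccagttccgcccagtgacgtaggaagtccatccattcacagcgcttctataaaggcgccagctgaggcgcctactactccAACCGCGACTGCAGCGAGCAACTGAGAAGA
Fosl2, chr5:32136284-32136501, plus strand: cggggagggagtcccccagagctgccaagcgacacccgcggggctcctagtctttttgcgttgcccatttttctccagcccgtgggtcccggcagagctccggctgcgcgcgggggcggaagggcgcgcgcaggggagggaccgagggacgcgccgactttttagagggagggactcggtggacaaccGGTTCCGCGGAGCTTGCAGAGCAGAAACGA
Jun, chr4:95052193-95052311, minus strand: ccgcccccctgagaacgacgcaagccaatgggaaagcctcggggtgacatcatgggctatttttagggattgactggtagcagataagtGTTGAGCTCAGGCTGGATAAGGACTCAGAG
Junb, chr8:84978719-84978988, minus strand: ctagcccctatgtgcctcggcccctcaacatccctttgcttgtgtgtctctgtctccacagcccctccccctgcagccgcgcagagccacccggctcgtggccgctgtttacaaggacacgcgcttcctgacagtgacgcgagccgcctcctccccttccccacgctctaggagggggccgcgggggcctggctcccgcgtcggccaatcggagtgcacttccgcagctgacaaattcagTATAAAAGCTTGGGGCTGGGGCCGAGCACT

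These peaks reached 82 bp (Fos), 188 bp (Fosl2), 89 bp (Jun) and 240 bp (Junb) beyond the annotated start. In replicate 2 the Junb peak reached 209 bp beyond it. Each of the following motifs was searched on both strands of 21263 windows of 300 bp at protein-coding genes. TATAAA, in 12.6% of windows, began 33 bases before the annotated start of Fos and at the first base of Junb as annotated. Jun had TGACATCA, a match to TGACNTCA (8.75% of windows), beginning 45 bases before its start. TGANTCA, a form that AP-1 binds, was in 6.99% of windows and in none of the 6 members'. CCAAT was in 38.2% of windows, and began 65 bases before the start of Jun and 36 before that of Junb. Around m6A the consensus reads A, G or T, then A or G, then the methylated A, then C, then A, C or T. On the sense strand of the first 50 bases from the start it occurred in 50.4% of windows and in 4 of 6 members: AGACT in Fos, GGACT in Jun, GGACT in Junb, and both AGACT and GGACA in Fosb. Such a match is a description of the letters and not a methylated site.

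Fos (NCBI Gene 14281, chromosome 12, 85473890 to 85477274, plus strand), the first member of the family to be described and the protein that gives it its name, had 3 peaks in replicate 1. The first covered the start, with its summit 91 bp into the gene (fold enrichment 7.68, −log10 q 26.4). The second had its summit at 1058 bp (5.43, 22.7). The last, from 85475605 to 85476333, had its summit at 2203 bp, 65.1% of the way along the gene body, and its fold enrichment was 6.06 at a −log10 q of 68.9. Only this peak recurred in replicate 2, from 85475782 to 85476266, with a fold enrichment of 7.74. Although its fold enrichment was lower than that of the peak at the start, it ranked highest of the 3 by −log10 q, at 4575 of 22531 in replicate 1, and its partner ranked 2356 of 5040 in replicate 2.

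Fosl2 (14284, chromosome 5, 32136472 to 32157840, plus strand), which encodes Fra-2, a Fos protein without the strong transactivation domain of Fos, is the longest of the 7 genes at 21369 bp. It also had 3 peaks in replicate 1, of which 1 recurred. The peak at the start had its summit 8 bp into the gene (fold enrichment 7.75). The recurring peak, from 32152503 to 32153297, had its summit 77.5% of the way along the gene body, where the antibody enriched RNA 9.31-fold in replicate 1 and 8.06-fold in replicate 2. The last peak of replicate 1 (7.39) had its summit 84.1% of the way along. Fosl2 held the recurring peak with the highest fold enrichment of any member in replicate 2, and that peak ranked 1367 of 5040 there.

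Jun (16476, chromosome 4, 95049036 to 95052222, minus strand) encodes c-Jun, the main partner of Fos proteins, and is a gene without introns. It had the highest value of the 7 genes in replicate 1. A peak from 95050763 to 95052311, 1549 bp wide, was enriched 12.6-fold, and its −log10 q of 242.3 ranked 87 of 22531. In replicate 2 the overlapping peak, from 95051109 to 95051760, had a fold enrichment of 4.02 and ranked 2120 of 5040 by −log10 q and 4280 of 5040 by fold enrichment. The fold enrichment of this pair was 3.13 times higher in replicate 1 than in replicate 2, a ratio reached by 5.08% of all 4684 overlapping pairs, whose median ratio was 0.981. The 4 other pairs of the AP-1 genes had ratios between 0.783 and 1.15. A second peak of replicate 1 in Jun had its summit at 1863 bp (4.67, −log10 q 65.2) and did not recur. The wide peak also lies within 500 bp of Junos, a long noncoding RNA gene. The sources used here do not say whether peak calling used strand, so RNA of Jun and of Junos cannot be told apart in it.

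Junb (16477, chromosome 8, 84976909 to 84978748, minus strand), an intronless gene whose protein can act against c-Jun at some promoters, had wide peaks of low fold enrichment. The single peak of replicate 1 was 1746 bp wide and had a fold enrichment of 2.80, rank 19056 of 22531, but a −log10 q of 78.3, rank 3761. Replicate 2 had 2 peaks inside this span, with fold enrichments of 2.64 and 2.98 and −log10 q of 4.28 and 5.40. The summit of the first lay 491 bp from the start and that of the second 1018 bp.

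The 3 genes with a peak in replicate 1 only gave mixed values. Fosb (14282, chromosome 7, 19302696 to 19310118, minus strand) encodes a Fos protein whose short splice form, ΔFosB, is known from neurons. Its peaks had their summits 490 and 2676 bp into the gene and fold enrichments of 12.3 and 8.10. The first was above every member peak but that of Jun, yet it ranked only 11118 of 22531 by −log10 q. Its exact pair of fold enrichment and −log10 q was held by 35 peaks of the list, itself included. For the second peak of Fosb that number was 112. The first stopped short of the annotated start of the gene body, by which covered starts were counted above, but covered the start used in the promoter window, which lies 73 bp inside it. Fosl1 (14283, chromosome 19, 5447698 to 5455938), which encodes Fra-1, had the 2 lowest −log10 q of all 14 peaks of replicate 1, 9.04 and 9.91, with fold enrichments of 6.16 and 3.34. The summit of the first lay 13 bp from the lower coordinate of the gene, and its exact pair of values was held by 198 peaks of the list, itself included. The other peak also lies within 500 bp of Ccdc85b. Genes with a peak in both replicates held such shared pairs of values too. In replicate 1 the number of peaks was 11 and 8 for the first and last Fosl2 peaks and 6 for the second Fos peak. In replicate 2 it was 11 for the Fosl2 peak, 6 for the Fos peak and 2 for the Junb peak with a fold enrichment of 2.98. Jund (16478, chromosome 8, 70697739 to 70700616, plus strand), the most constitutively expressed Jun gene in many tissues, had 1 peak of 1278 bp with a fold enrichment of 1.77, which ranked 22017 of 22531, and a −log10 q of 29.8, which ranked 11005.

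**Figure D2:**
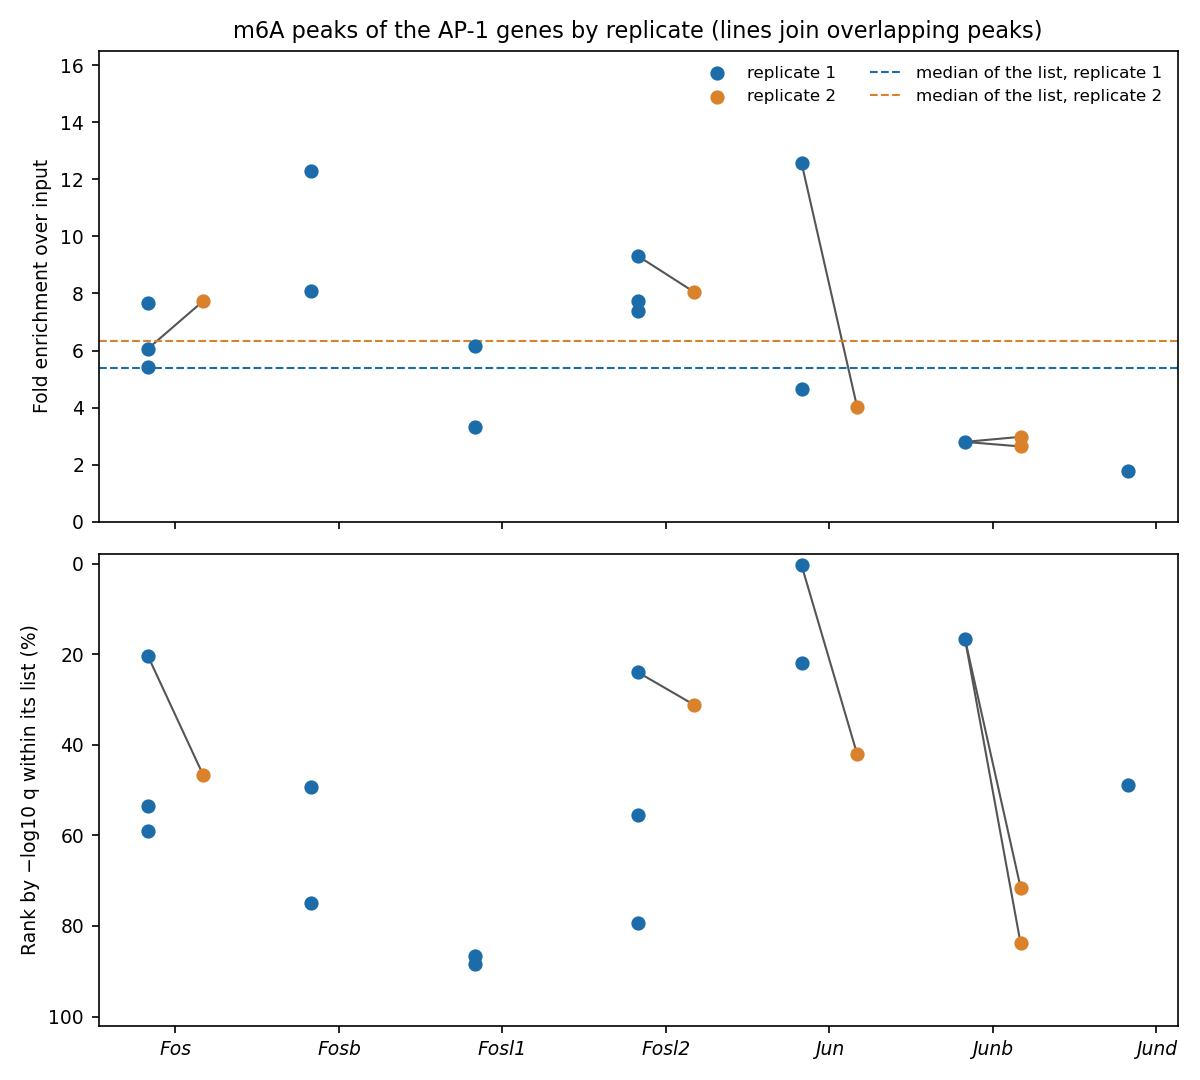
Fold enrichment over input (upper) and rank within its own list by −log10 q, in percent with the top of the list at 0 (lower), of each peak at the 7 genes, for replicate 1 (blue) and replicate 2 (orange). Lines join overlapping peaks and dashed lines are list medians, 5.39 and 6.35; Jun had 12.6 in replicate 1 and 4.02 in replicate 2.

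By the highest fold enrichment at each gene, the order in replicate 1 was Jun (12.6), Fosb (12.3), Fosl2 (9.31), Fos (7.68), Fosl1 (6.16), Junb (2.80) and Jund (1.77). In replicate 2 it was Fosl2 (8.06), Fos (7.74), Jun (4.02) and Junb (2.98). Fosl2 stood above Fos and both stood above Junb in each replicate. The highest value of Fos came from the peak at the start in replicate 1 and from the recurring peak in replicate 2. That recurring peak had 6.06 in replicate 1, which is below Fosl2 and above Junb as well, but also below Fosl1. The place of Jun did not hold, being first in replicate 1 and behind Fosl2 and Fos in replicate 2. With 2 replicates the spread of a gene is known only imprecisely, and a gene with a peak in replicate 1 only has no spread, so neighbours in either order were not called different.

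The Fos and Jun genes differed in the shape of their peaks. The 10 peaks of the 4 Fos genes in replicate 1 were 300 to 795 bp wide (median 510.5 bp), and the 4 peaks of the 3 Jun genes were 718 to 1746 bp wide (median 1413.5 bp). All 3 peaks wider than 1000 bp, out of 14, were at Jun genes, 1 at each, against 13.6% of the whole list being that wide. In replicate 2 the 2 peaks of Fos genes were 351 and 485 bp wide. The 3 of Jun genes were 498, 652 and 767 bp wide, of which 2 were at Junb, and the list median was 446 bp. The ranges nearly touched in replicate 2 and overlapped in replicate 1. Fold enrichment ran the other way. In replicate 1, 9 of 10 peaks of the Fos genes were above the list median and 1 of 4 of the Jun genes was. In replicate 2, both peaks of Fos genes were above the list median of that replicate and none of the 3 of Jun genes was. Peaks of 1 gene are not independent of each other, and these family contrasts were seen in the data and not tested.

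Junb was covered by peaks over 81.8% of its gene body in replicate 1 and 57.4% in replicate 2. Jun was covered over 68.3% and 20.5%. Jund had 44.4% and Fos 38.5% in replicate 1, and in replicate 2 Fos had 14.3%. Fosb (14.0%), Fosl1 (10.2%) and Fosl2 (7.62%) were covered far less in replicate 1. Gene length moved with this measure, and its part in the values was not tested. Among the 365 protein-coding genes with a peak in replicate 1 and a body of 1779 to 3162 bp, the median was 36.2% (quartiles 18.9% and 61.9%), with Junb above the upper quartile and Jund between the quartiles. Among the 639 of 3163 to 5623 bp it was 22.8% (11.1% and 36.5%), with Jun and Fos above the upper quartile. Over all 9038 such genes the median was 3.76%. Junb ranked 62 of these 9038 by covered share, and in replicate 2 it ranked 29 of 3704.

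**Figure D3:**
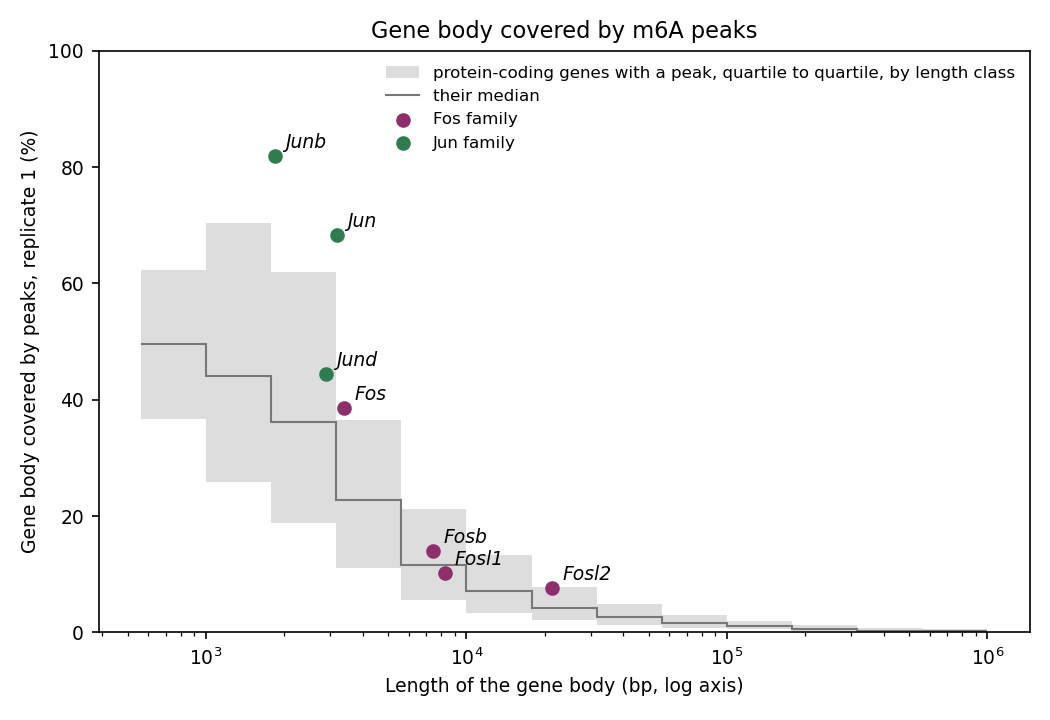
Percent of the gene body covered by replicate 1 peaks against gene body length in bp (log axis), for the 7 genes (Fos family purple, Jun family green) and for protein-coding genes with a peak in classes of length (grey line, median; grey band, quartile to quartile). Junb (81.8%), Jun (68.3%) and Fos (38.5%) lie above the band, and Fosb, Fosl1, Fosl2 and Jund lie within it.

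Peaks at the AP-1 genes lay throughout the transcribed region. Of the 12 replicate 1 peaks at the 6 genes of known strand, 4 had their summit within 500 bp after the annotated start, those of Fos, Fosb, Fosl2 and Junb, against 5.60% of the 14864 summits inside 1 protein-coding gene of known strand. That share was not matched for gene length. The summits of Fosb and Junb both lay 490 bp from the start, so a slightly shorter window would leave them out. Neither this window nor the count of covered starts above was among the results planned beforehand. The recurring peaks lay 24.9% of the way along the gene body in Jun, 26.6% and 55.3% in Junb (replicate 1 and the second peak of replicate 2), 65.1% in Fos and 77.5% in Fosl2. The median position of all such summits was 76.3% in replicate 1 and 87.3% in replicate 2. Exons and coding sequences were not in the annotation used here, so no summit was assigned to a stop codon, an untranslated region or an exon.

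Genes that work with Fos and Jun had peaks to differing extents, as the plot of shares by gene list shows. Of 26 related leucine zipper genes, which include dimer partners of Fos and Jun such as the Atf, Batf and Maf proteins, 21 had a peak in replicate 1 (80.8%, against 41.3% of protein-coding genes) and 6 in both (23.1%, against 16.1%). These 6 were Atf3, Atf5, Atf6, Mafa, Mafg and Mafk, each with overlapping peaks. Atf3, a stress-induced factor, reached 12.0-fold enrichment in replicate 1 and 9.89-fold in replicate 2, and Mafa, a large Maf protein, had 23.2 and 9.50. Atf5 had 4.12 and 4.36, and Atf6, a sensor of endoplasmic reticulum stress, had 4.78 and 8.43. Jdp2, which binds Jun proteins and represses AP-1, had 18.7 in replicate 1 and no peak in replicate 2. The median of the highest fold enrichments over the list was 8.10 in replicate 1 and 8.96 in replicate 2, beside 6.45 and 6.71 for all protein-coding genes with a peak.

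Of 26 regulators of Fos and Jun, 16 had a peak in replicate 1 (61.5%, against 41.3% of protein-coding genes) and 9 in both (34.6%, against 16.1%). Srf, which drives Fos transcription through the serum response element, reached 3.90-fold enrichment in replicate 1 and 7.02-fold in replicate 2, and Mapk7 (ERK5) had 5.14 and 4.68. Map2k7, a kinase that activates the Jun N-terminal kinases, had 3.33 and 4.67, and the p38 kinase gene Mapk14 had 1.65 and 2.81. Others in both lists included Rps6ka2 and the RNA-binding genes Zfp36, Zfp36l1 and Zfp36l2, whose proteins bind AU-rich elements and speed mRNA decay. Mapk8, Mapk9 and Mapk10, the Jun N-terminal kinases, had no peak in either list. The median of the highest fold enrichments was 4.20 in replicate 1 and 4.68 in replicate 2, below the 6.45 and 6.71 of all protein-coding genes with a peak.

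Of 22 genes often named as AP-1 targets, 9 had a peak in replicate 1 (40.9%, against 41.3% of protein-coding genes), 5 in replicate 2 (22.7%, against 16.9%) and 3 in both (13.6%, against 16.1%). Overlapping peaks were found at Mmp9, a matrix metalloproteinase (4.93-fold in replicate 1 and 6.47-fold in replicate 2), and at Dmtn (2.86 and 3.73). Plaur, the urokinase receptor gene, and Hmox1, which encodes heme oxygenase, had a peak in replicate 2 only (4.92 and 3.56). The cell cycle target Ccnd1 had none in either list. For these 3 lists the shares are descriptions and were not tested.

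**Figure D4:**
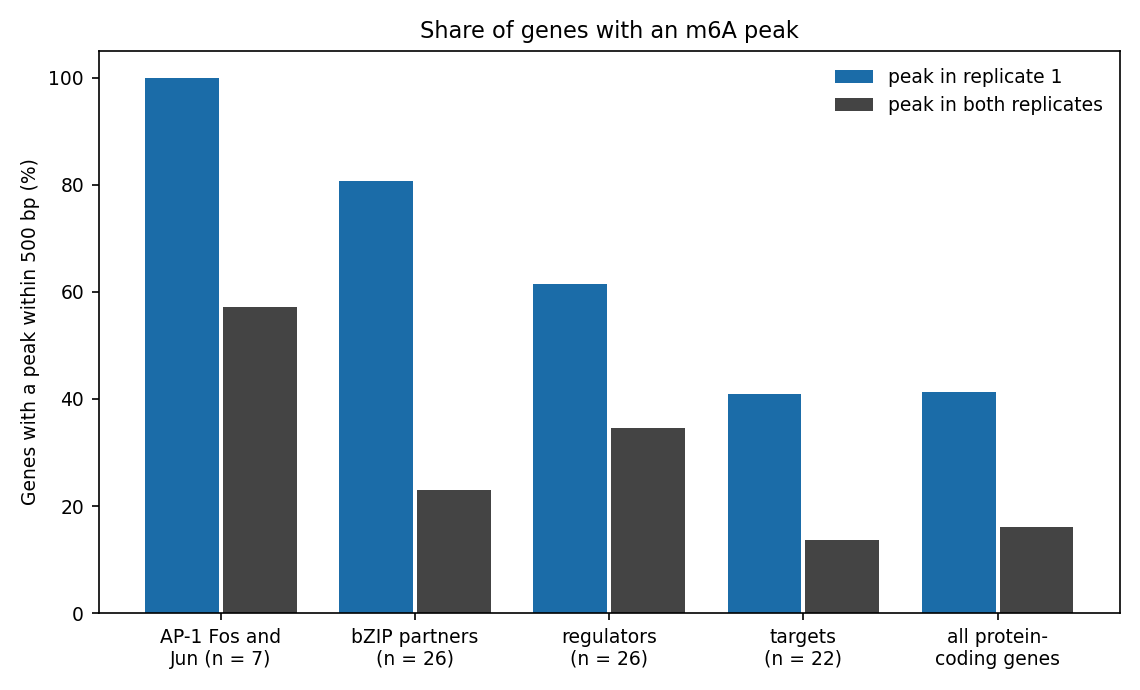
Percent of genes with an m6A peak within 500 bp in replicate 1 (blue) and in both replicates (dark), for the 7 AP-1 genes, the leucine zipper partners, the regulators, the targets and all protein-coding genes. In both replicates the shares were 57.1%, 23.1%, 34.6%, 13.6% and 16.1%.

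The protein-coding genes closest to a member in the highest fold enrichment of both replicates (Euclidean distance on the log2 scale, over 2 libraries, among 3410 other genes with overlapping peaks) were Tap1 and Mettl27 for Fos, and Rprm and 2810021J22Rik for Fosl2. Those closest to Jun were Nab2 and Vsig10, and those closest to Junb were Natd1 and Tusc2. Nab2, a corepressor of the immediate early Egr factors, had 13.1 in replicate 1 and 3.98 in replicate 2, at a distance of 0.062 from Jun. This rests on 2 values for each gene and is a description only. For Fos the 2 values came from different peaks, the peak at the start in replicate 1 and the recurring peak in replicate 2.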

How the data were processed

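m6A-RIP-seq was run on oligo-dT selected mRNA, and the 2 wild-type peak lists were used. The authors called peaks with MACS2, default settings, separately for each immunoprecipitation relative to input; the submitters' processing notes also name Bowtie, SAMtools and mm10, without versions. How duplicate reads were handled was not found. The samples include 1 input per genotype, so there is 1 wild-type input for the 2 wild-type immunoprecipitations. No description read here says outright that both peak calls used it. If they did, the fold enrichments of the replicates share a denominator, and the effect of this was not tested. The deposited values are positions, a fold enrichment (a ratio over input), the −log10 of the p-value (not used) and of the q-value, and a score, which was not used. Depth is unknown and nothing was adjusted for it.

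Peaks were assigned to every RefSeq gene (GRCm38.p6) within 500 bp of its body and called shared at 1 bp of overlap. Strand and sequence came from RefSeq promoter windows. No test was run: the members and gene lists were chosen with earlier results of these data known, so counts stand beside those of all protein-coding genes. The genes named are the members, up to 8 genes per list with overlapping peaks in list order with values for up to 4, and the 2 nearest genes to each member by fold enrichment; Jdp2, the Jun N-terminal kinases, Ccnd1, Plaur, Hmox1 and the markers without a peak were added after their values were seen. Interval overlap was tested on simulated data. Alternatives were thresholds, distances, overlaps, list length and backgrounds. Computations ran in Python 3.11.15 (pandas 2.3.3, numpy 2.4.6) and plots in matplotlib 3.10.9.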

Additional observations from a re-analysis of the deposited data

How the results depend on the processing

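Fos, Fosl2, Jun and Junb remained the 4 genes with a peak in both replicates at a −log10 q of at least 5, at distances of 0 and 2000 bp, with summits inside the gene body and with the nearest gene only. At a fold enrichment of at least 4 Junb was lost, leaving 3, and with replicate 1 reduced to the length of the list of replicate 2 Fosl2 was lost, leaving 3. Leaving out a replicate gave 4 to 7 genes. When 50% of both peaks had to overlap, 1 gene, Fos, was left, which follows from the narrower peaks of replicate 2; with summits within 100 bp it was 4. The genes held 5 peaks of replicate 2, of which 3 reached 4-fold enrichment, both peaks of Junb being lower. Of protein-coding genes, 16.1% had a peak in both replicates, as did 13.6% of those no longer than Fosl2 and 7.84% of all annotated genes. The 16.1% fell to 12.8% under the −log10 q limit, to 11.6% under the 4-fold limit and to 10.7% with the reduced list. No such share was computed for the distance, summit, nearest-gene or 50% overlap settings, so those counts of members have no background. Of the 4 starts covered by a replicate 1 peak, 2 stayed covered when that list was reduced, a check chosen after seeing the data. No paired analysis was possible because only wild-type peak lists were used and no groups were compared. With depth unknown, a missing peak in the shorter list of replicate 2 does not show that the mark is absent.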
